A study of Mus musculus with 10 samples.

Results

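The genes described here are 7 regulators of antigen receptor signalling: the tyrosine phosphatase genes Ptpn22, Ptpn6, Ptprc and Ptprj, the lipid phosphatase gene Inpp5d, the kinase gene Csk and the adaptor gene Pag1. All 7 of 7 were found among the 14450 genes of the deposited table by their symbols. Ptpn22 was selected on its higher CPM in Chat+ than in Chat- libraries of this series, so that difference is given as a description, without a test, and the other 6 were listed beside it as regulators of the same receptor. Mature B cells were sorted by their fluorescence from marrow of Chat-GFP mice in steady state. In this strain green fluorescence reports use of Chat, the gene of the acetylcholine-making enzyme. There were 5 libraries of Chat+ and 5 of Chat- B cells, both from the same reporter strain. Age, sex and the number of animals were not given in the sources used here, so the spread between libraries may be partly technical. Cells were pooled in each library, so fewer expressing cells and less transcript per cell cannot be told apart.

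In a B cell, antigen receptor signals start with Src family kinases such as Lyn, which are held off by a phosphate on a tail tyrosine and switched on by a phosphate on an activation loop tyrosine. Csk adds the tail phosphate, Pag1 is a membrane adaptor that brings Csk to these kinases, and Ptprc (CD45) and Ptprj (CD148) remove the tail phosphate. Ptpn22 (also called PEP in mice) binds Csk and removes the activating phosphate, Ptpn6 (SHP-1) acts from receptors with inhibitory tyrosine motifs such as Cd22, and Inpp5d (SHIP1) breaks down a membrane lipid made by PI3 kinase.

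The 4 tyrosine phosphatase genes share an active-site motif that the same search did not find in the reading frames of the other 3, and its coding sequence is shown because these 4 enzymes use it to act on phosphotyrosine. The stretches below are 30 bases of the GENCODE M21 transcript with the longest reading frame of each gene, in the sense of the mRNA. Capitals mark the codon of the catalytic cysteine and the codon of the arginine that holds the phosphate.

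Ptpn22: cacTGCagtgccggctgcggaAGGacaggt
Ptpn6: catTGCagcgctggcatcggcCGCacgggc
Ptprc: cacTGCagtgctggtgttgggCGTacaggt
Ptprj: catTGCagtgctggggttggaAGGacgggc

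The motif searched was an in-frame run of codons for histidine, cysteine, any 2, glycine, any 2, arginine, and serine or threonine, on the coding strand only. It was found once in each of the 4 genes and in 60 of 12500 coding genes of the table (0.48%). The cysteine was codon 227 of 802 in Ptpn22, codon 455 of 597 in Ptpn6, codon 842 of 1293 in Ptprc and codon 1252 of 1350 in Ptprj. The Ptpn22 stretch matched those of Ptprc and Ptprj at 22 of 30 bases and that of Ptpn6 at 20 of 30. In all 4 genes an intron cuts the stretch after base 8. The same cut was found in 6 of 12 matching non-receptor and 8 of 8 matching receptor tyrosine phosphatase genes outside the 4, and in 0 of 8 dual-specificity and 0 of 9 phosphoinositide phosphatase genes. In the mouse build GRCm38 the Ptpn22 stretch lies in exons 8 and 9 of 21, within chr3:103876730-103877326 on the plus strand. The Ptpn6 stretch lies in exons 11 and 12 of 15, within chr6:124722057-124724964 on the minus strand. The Ptprc stretch lies in exons 24 and 25 of 33, within chr1:138080249-138080844 on the minus strand, and the Ptprj stretch in exons 22 and 23 of 24, within chr2:90439971-90440632 on the minus strand.

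The estimated depth lay between 21530000 and 30060000 reads a library. The library Chat- replicate 4 stood apart, with mitochondrial transcripts at 11.9% of counts against 2.27% to 3.85% in the other 9 libraries, and with 1213 genes at the lowest value against 62 to 682. Results that rest on it are given with and without it. Chat itself had 70.6 ± 28.9 CPM (counts per 1000000 counts, SD, n = 5) in Chat+ against 7.5 ± 7.25 in Chat-, which checks the sort. All 10 B cell markers on the list were present, summing to 11079 to 11900 CPM in Chat+ and 11520 to 12100 CPM in Chat-, with Cd79a, a chain of the receptor complex, the highest.

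Ptpn22, the phosphatase that pairs with Csk, had its 5 highest values in the 5 Chat+ libraries. Its gene (ENSMUSG00000027843) lies on chromosome 3 at 103859795 to 103912247 on the plus strand. In Chat+ replicates 1 to 5 it had 78.6, 70.3, 83.5, 82.1 and 102 CPM, and in Chat- replicates 1 to 5 it had 42.5, 44.2, 40.2, 55.9 and 50 CPM. The lowest Chat+ library was 1.26 times the highest Chat- library, so the groups did not overlap. The group means were 83.2 ± 11.5 and 46.5 ± 6.35 CPM (SD, n = 5), and the log2 fold change was 0.84 ± 0.13 (SE). As a fold this is 1.79.

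Between 1078 and 2624 estimated reads lay behind each Ptpn22 value, which gives a counting error of 1.95% to 3.05%, against a spread of 13.8% (Chat+) and 13.6% (Chat-) between libraries. Of 8940 genes with a mean of at least 10 CPM, 101 had a larger positive log2 fold change than Ptpn22. Without Chat- replicate 4, which had the highest Ptpn22 of its group, the Chat- mean was 44.2 ± 4.17 CPM (SD, n = 4) and the log2 fold change 0.90 ± 0.11 (SE). Over the transcriptome, 1.43% of genes had groups that did not overlap (1.12% with Chat+ above), and Ptpn22 was 1 gene of the 7 with such a split. Since the group was built around its difference, nothing is read from that count.

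**Figure D1:**
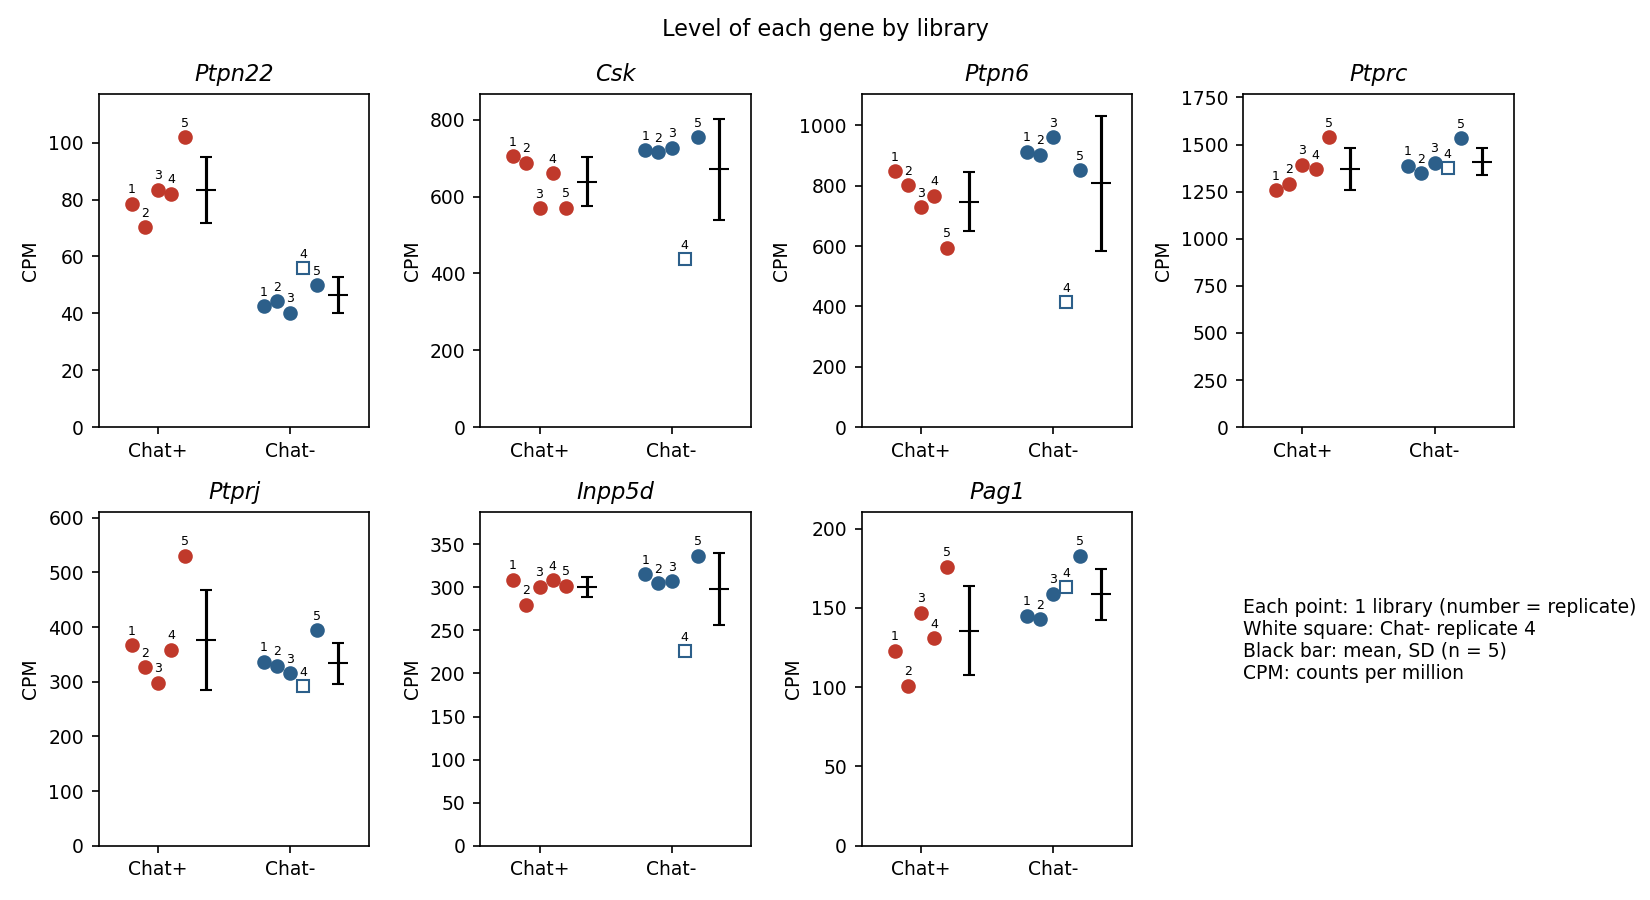
Level of each of the 7 genes in CPM (y axis, from 0) in the 5 Chat+ and 5 Chat- libraries, with the mean and SD of each group as a black bar and Chat- replicate 4 as a white square. Ptpn22 separates the groups (70.3 to 102 against 40.2 to 55.9 CPM), while the groups of the other 6 genes overlap.

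None of the other 6 genes passed the test for a difference between the sorted groups (limma over 14450 genes, Benjamini-Hochberg adjusted p = 0.999 for each). That test called 0.00692% of all genes, 1 gene in all, and 4.51% had an unadjusted p under 0.05, against 0 of these 6. Their log2 fold changes ran from -0.25 to 0.15, with a median of -0.04 beside 0.04 for all genes. The intervals below show which differences the data still allow, since a missed threshold does not show equal levels.

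Csk, the kinase that Ptpn22 binds, lies on chromosome 9 (57626646 to 57653631, minus strand). It had 705, 688, 569.5, 661 and 571 CPM in Chat+ replicates 1 to 5 and 721, 715, 727, 437 and 755 CPM in Chat- replicates 1 to 5. With all libraries the groups overlapped only through Chat- replicate 4, and the log2 fold change was -0.05 (95% confidence interval -0.38 to 0.28). Without that library every Chat+ value was below every Chat- value (639 ± 64.4 CPM, n = 5, against 729 ± 17.8 CPM, n = 4, SD). The log2 fold change was then -0.20 ± 0.09 (SE) and missed the threshold (limma adjusted p = 0.68).

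Pag1, the adaptor that anchors Csk at the membrane, lies on chromosome 3 (9687479 to 9833679, minus strand). It had 123, 101, 147, 131 and 176 CPM in Chat+ replicates 1 to 5 and 145, 143, 159, 163 and 183 CPM in Chat- replicates 1 to 5. Chat+ libraries 1, 2 and 4 were below all Chat- libraries, while 3 and 5 lay inside their range. The means were 136 ± 27.9 and 159 ± 16 CPM (SD, n = 5), with a log2 fold change of -0.25 (95% confidence interval -0.54 to 0.05; unadjusted p = 0.099, limma). This was the lowest log2 fold change of the 7 genes with all 10 libraries. Without Chat- replicate 4 Pag1 was at -0.23 ± 0.14 (SE), and Ptpn6 was lower, at -0.29.

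Ptprc, the gene of CD45, lies on chromosome 1 (138062861 to 138175708, minus strand) and had the most counts of the 7 genes. It had 1256, 1291, 1393, 1369 and 1539.7 CPM in Chat+ replicates 1 to 5 and 1388, 1349, 1403, 1375 and 1532 CPM in Chat- replicates 1 to 5. Replicate 5 was the highest library in both groups. The groups differed by less than their spread (1369.9 ± 110.1 against 1409 ± 71.2 CPM, SD, n = 5), and the 95% confidence interval of the fold difference was 0.831 to 1.13. The values are per gene, so the CD45 isoforms, which differ in spliced exons, are not told apart.

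Ptprj, the gene of CD148, which overlaps with CD45 in activating Src family kinases of mouse B cells, lies on chromosome 2 (90429754 to 90580647, minus strand). It had 367, 327, 298, 359 and 531 CPM in Chat+ replicates 1 to 5 and 337, 329, 316, 292 and 394 CPM in Chat- replicates 1 to 5. Replicate 5 was again the highest of each group, and the ranges overlapped. The means were 376 ± 90.5 and 334 ± 37.7 CPM (SD, n = 5), with a log2 fold change of 0.15 (95% confidence interval -0.17 to 0.47). That fold change was 0.11 without Chat- replicate 4 and 0.02 without Chat+ replicate 5. Transcripts of other genes hold 11.5% of its 31-base words, and reads from those stretches are of uncertain origin. For the other 6 genes this share was 0% to 0.843%.

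Ptpn6, the phosphatase recruited by inhibitory receptors, lies on chromosome 6 (124720707 to 124738714, minus strand). It had 847, 801, 728, 767 and 594 CPM in Chat+ replicates 1 to 5 and 912, 903, 961, 413 and 851 CPM in Chat- replicates 1 to 5. As for Csk, Chat- replicate 4 was far below the rest of its group and was the only Chat- library inside or below the Chat+ range. With it the log2 fold change was -0.06 (95% confidence interval -0.52 to 0.40). Without it every Chat+ value was below every Chat- value (748 ± 96.2 CPM, n = 5, against 907 ± 44.9 CPM, n = 4, SD), with a log2 fold change of -0.29 ± 0.11 (SE; limma adjusted p = 0.54). An antisense gene, Gm20531, covers 6.96% of the exon bases of Ptpn6, and since the strand setting of the counting is not given its reads cannot be told apart.

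Without Chat- replicate 4, 3.29% of all genes had groups that did not overlap, 2.35% with Chat+ above and 0.941% with Chat+ below, and Csk and Ptpn6 were 2 of these. In that library myeloid markers summed to 323 CPM against 88.9 to 197 CPM in the other 9 libraries, stromal and endothelial markers to 602 CPM against 292 to 436 CPM, and B cell markers to 11788 CPM, inside the range of the other Chat- libraries. The part of these values in its low Csk and Ptpn6 was not tested.

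Inpp5d, the gene of SHIP1, lies on chromosome 1 (87620312 to 87720507, plus strand). It had 309, 280.1, 301, 308 and 302 CPM in Chat+ replicates 1 to 5 and 315, 305, 307, 226 and 337 CPM in Chat- replicates 1 to 5. It had the narrowest spread of the 7 genes in Chat+ (3.91% of the mean, against 8.04% to 24% for the other 6). The means were 300 ± 11.7 and 298 ± 42.2 CPM (SD, n = 5). The log2 fold change was 0.02 (95% confidence interval -0.22 to 0.26) and turned to -0.07 ± 0.07 (SE) without Chat- replicate 4.

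**Figure D2:**
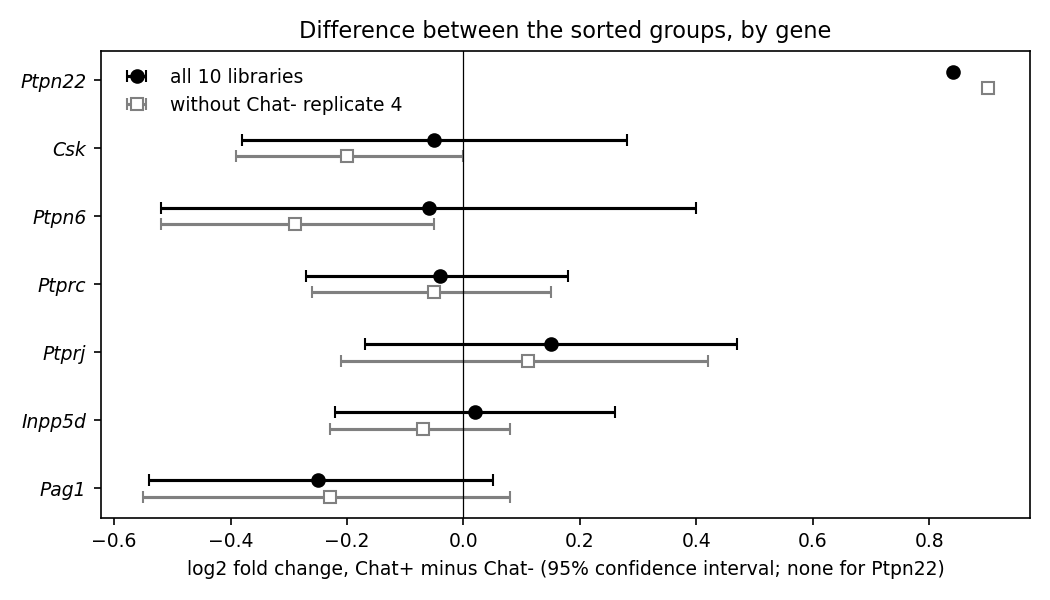
Log2 fold change between Chat+ and Chat- (x axis) for each gene, with the 95% confidence interval of the 6 tested genes (none for Ptpn22, which was selected on this difference), over all 10 libraries (black) and without Chat- replicate 4 (gray). Ptpn22 lies at 0.84 and 0.90, while Csk moves from -0.05 to -0.20 and Ptpn6 from -0.06 to -0.29.

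Scaled by transcript length, Ptpn22 was among the low genes of the group. In Chat- cells the level per kilobase of the longest coding transcript was 350 ± 97.2 CPM per kb for Ptpn6, 278 ± 14.0 for Ptprc and 244 ± 48.0 for Csk (SD, n = 5). These 3 neighbours in the order did not differ beyond their spread. Inpp5d had 60.4 ± 8.54, Ptprj 43.7 ± 4.94, Pag1 19.2 ± 1.94 and Ptpn22 17.0 ± 2.31 CPM per kb, and the last 2 were again within their spread. In Chat+ cells Ptpn22 had 30.3 ± 4.2 CPM per kb and Pag1 16.4 ± 3.38, so Ptpn22 ranked above Pag1 there. The order of the first 5 was the same in both groups, with 324 ± 41.7 CPM per kb for Ptpn6, 270.0 ± 21.7 for Ptprc, 232 ± 23.4 for Csk, 60.8 ± 2.38 for Inpp5d and 49.3 ± 11.9 for Ptprj in Chat+.

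Ptpn22 was also set against other genes in the same library, a ratio in which the scaling of the library cancels. Per 100 CPM of Ptprc there were 6.25, 5.44, 6, 6 and 6.60 CPM of Ptpn22 in Chat+ replicates 1 to 5 and 3.06, 3.27, 2.87, 4.06 and 3.26 CPM in Chat- replicates 1 to 5. The means were 6.06 ± 0.425 and 3.31 ± 0.455 (SD, n = 5), and the groups did not overlap. Per 100 CPM of Csk there were 11.2, 10.2, 14.7, 12.4 and 17.8 CPM in Chat+ replicates 1 to 5 and 5.90, 6.17, 5.53, 12.8 and 6.62 CPM in Chat- replicates 1 to 5. Here Chat- replicate 4, with its low Csk, lay inside the Chat+ range, while the other 4 Chat- libraries lay below it. These ratios contain the Ptpn22 difference itself and are a description only.

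**Figure D3:**
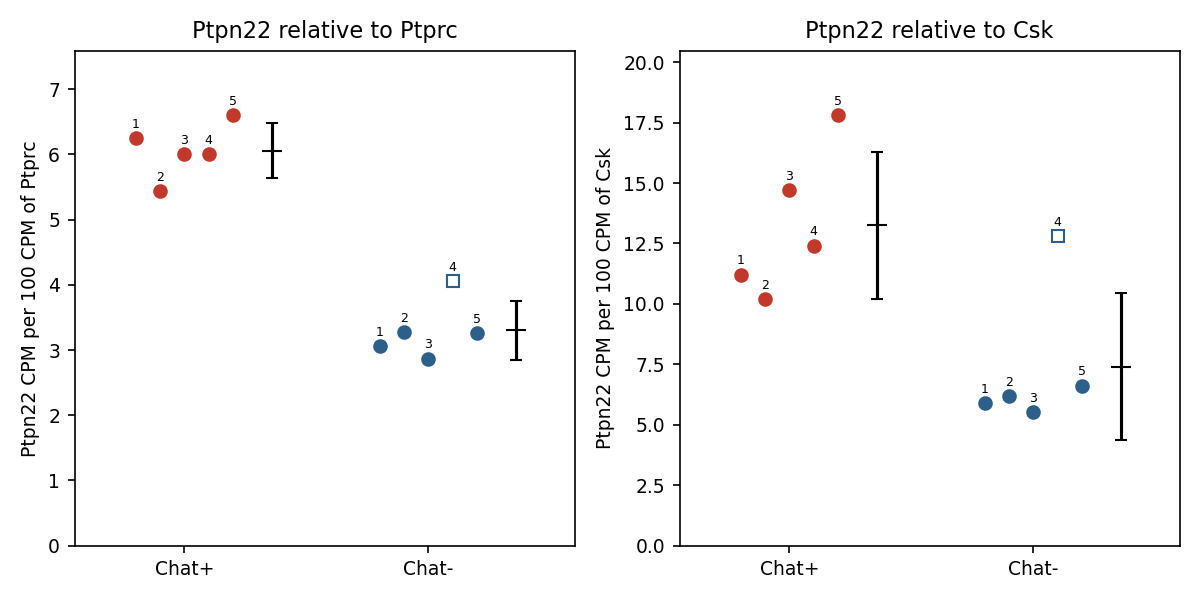
Ptpn22 CPM per 100 CPM of Ptprc (left) and of Csk (right) in each library, from 0, with the mean and SD of each group (n = 5) and Chat- replicate 4 as a white square. The ratio to Ptprc separates the groups (5.44 to 6.60 against 2.87 to 4.06), and in the ratio to Csk Chat- replicate 4 (12.8) lies among the Chat+ libraries.

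Proliferation markers and markers of other cell types were measured in the same libraries. The 15 proliferation markers summed to 444 to 764 CPM in Chat+ and 345 to 433 CPM in Chat-, so the groups did not overlap in this sum, as in Ptpn22. Each of the 15 had its higher mean log2 level in Chat+, and their log2 fold changes had a median of 1.09 beside 0.04 for all genes. None passed the test over all genes, while 13 of 15 had an unadjusted p under 0.05 and a higher level in Chat+ (limma), as 3.49% of all genes did, and in 5 of 15 every Chat+ library was above every Chat- library, as in 1.12% of all genes. Mki67, a nuclear protein of dividing cells, had 111 ± 28.9 CPM in Chat+ against 45.8 ± 8.81 in Chat-, and Tpx2, a spindle protein, 26.2 ± 8.9 against 8.99 ± 2.35 CPM (SD, n = 5). Chat+ replicate 5, with the highest Ptpn22 (102 CPM), had the lowest proliferation sum of its group (444 CPM). Chat transcript was also lowest in that Chat+ library (31.1 CPM against 59.9 to 111 CPM). T cells, NK cells and myeloid cells express Ptpn22 too. Of 20 T and NK cell markers 6 were analysed here, and those for the Cd3 chains were not among them. The 6 summed to 197 to 260 CPM in Chat+ and 164 to 256 CPM in Chat-, nearly all of it Cd2 (195 to 257 and 162 to 251 CPM), which mouse B cells also carry. The 18 myeloid markers analysed of 20 summed to 139 to 197 CPM in Chat+ and 88.9 to 323 CPM in Chat-, or 88.9 to 162 CPM without Chat- replicate 4. Of the 18, 12 were higher and 6 lower in Chat+, and 1 was lower at an unadjusted p under 0.05 (limma). Their log2 fold changes had a median of 0.14, or 0.54 without Chat- replicate 4. The 9 plasma cell markers of 10 summed to 495 to 780 CPM in Chat+ and 432 to 513 CPM in Chat-. Of the 9, 6 were higher and 3 lower in Chat+, and 3 were higher at an unadjusted p under 0.05 (limma). Their log2 fold changes ran from -0.05 to 1.75, with a median of 0.10. Chat+ replicate 5, with the highest Ptpn22, also had the highest plasma cell sum (780 CPM). The 12 stromal and endothelial markers of 15 summed to 292 to 436 and 307 to 602 CPM. Of these, 10 of 12 were higher in Chat+ and 0 had an unadjusted p under 0.05, and their log2 fold changes had a median of 0.60, or 1.10 without Chat- replicate 4. Sparc, a matrix protein, had 18.5 ± 7.96 CPM in Chat+ against 15.0 ± 20.7 in Chat- (SD, n = 5; log2 fold change 0.90). The highest marker of each of these lists was Pcna for proliferation (151 ± 17 against 129 ± 9.41 CPM, SD, n = 5), Lyz2 for myeloid cells (32.5 ± 12 against 34.7 ± 29.6 CPM), Mzb1 for plasma cells (182 ± 24.1 against 132 ± 40.5 CPM) and Pecam1 for endothelium, which B cells also express (253 ± 6.83 against 253 ± 44.2 CPM). The part of these markers in the Ptpn22 difference was not tested.

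The genes next to Ptpn22 on chromosome 3 were tested for a difference between the sorted groups. Within 300 kb of Ptpn22, 12 other genes annotated as coding were found and 7 of them were analysed. Of these 7, 0 passed (limma adjusted p = 0.999 for each), as 0.00692% of all genes did. An unadjusted p under 0.05 was found for 0 of the 7, beside 4.51% of all genes. Groups did not overlap in 0 of the 7, beside 1.43% of all genes. For 7 genes these counts are near the shares of all genes, so nothing is read from them. Rsbn1, the next gene downstream, averaged 103 ± 14.1 CPM in Chat+ against 102 ± 16.7 in Chat- (SD, n = 5), and the 95% confidence interval of its log2 fold change was -0.26 to 0.30. Hipk1, a kinase gene upstream, averaged 342 ± 49.2 and 346 ± 30.9 CPM, with an interval of -0.27 to 0.22. The highest log2 fold change was 0.27 for Ap4b1, an adaptor of vesicle transport, with 51.5 ± 7.07 and 43.5 ± 11 CPM (95% confidence interval -0.11 to 0.65). No exon of Ptpn22 overlaps an exon of another annotated gene.

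**Figure D4:**
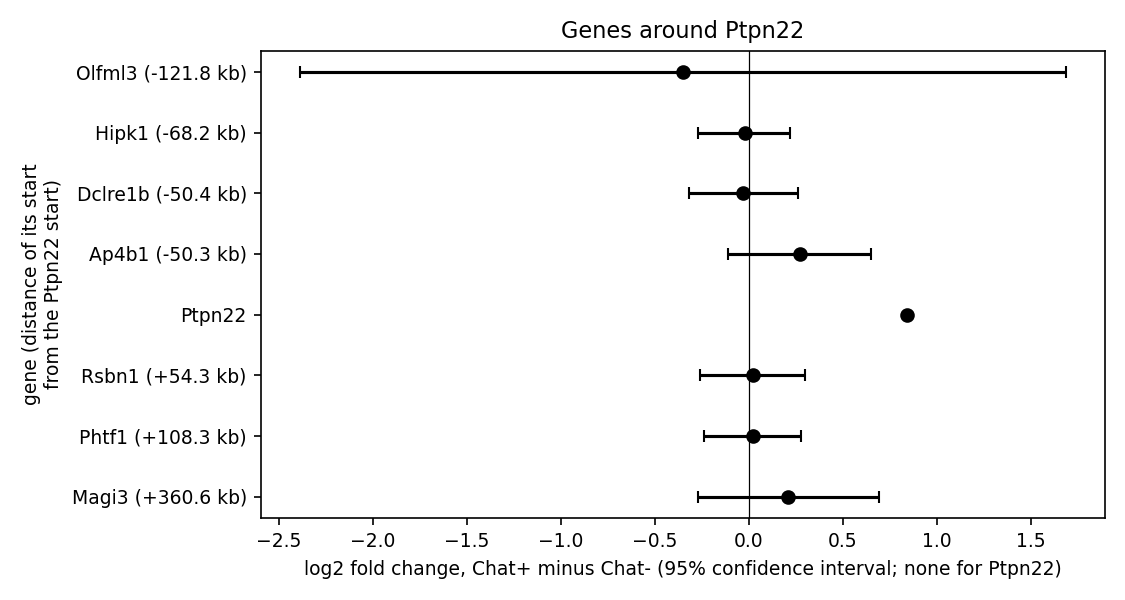
Log2 fold change between Chat+ and Chat- (x axis) for Ptpn22 and the 7 analysed coding genes around it, with the 95% confidence interval of those 7, ordered by the distance of their start from the Ptpn22 start in kb. Ptpn22 lies at 0.84 and the intervals of the 7 other genes include 0; Olfml3, at a mean of under 2 CPM, has the widest.

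The genes whose log2 levels followed Ptpn22 most closely over the 10 libraries, out of 8481 other protein-coding genes with a mean of at least 10 CPM, were Mcoln2 (Pearson r = 0.970), Arhgef12 (0.969), Vim (0.963), Fam49a (0.956) and Ly6a (0.952). Mcoln2 encodes a lysosomal channel, Vim an intermediate filament and Ly6a the surface protein Sca-1. Mcoln2 averaged 63.2 ± 4.68 CPM in Chat+ against 49.4 ± 2.24 in Chat-, and Ly6a 289 ± 34.8 and 207 ± 18.9 CPM (SD, n = 5). These values contain the step between groups. With each group's mean removed, the closest were Fam117b (0.988), Spg21 (0.979), Lrrc8c (0.975), Gbp5 (0.974) and Rasgrp1 (0.969), all with log2 fold changes between -0.09 and 0.20. On that measure r was 0.79 for Pag1, 0.63 for Ptprc, 0.48 for Ptprj, -0.35 for Inpp5d, -0.70 for Csk and -0.80 for Ptpn6. Chat- replicate 4 had the highest Ptpn22 and the lowest Csk, Ptpn6 and Inpp5d of its group, so it adds to the negative values. Values of r without it were not computed. The 10 libraries share their scaling to a total, and Chat- replicate 4 takes part in every such value.

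Among the wider phosphatase genes, 0 passed the test over all genes. An unadjusted p under 0.05 (limma) was found for 1 of 13 non-receptor, 0 of 10 receptor and 2 of 25 phosphoinositide phosphatase genes. All of these were higher in Chat+, as were 3.49% of all genes at that limit. It was also found for 1 of 8 dual-specificity genes, lower in Chat+, as for 1.01% of all genes. Each share rests on at most 2 genes. Of 13 analysed non-receptor tyrosine phosphatase genes outside the group, 11 were higher and 2 lower, and the median log2 fold change was 0.14, and 1 had an unadjusted p under 0.05. That was Ptpn14, at 33.8 ± 9.75 CPM in Chat+ against 24 ± 6.63 in Chat- (SD, n = 5; limma adjusted p = 0.999). Ptpn1, the phosphatase PTP1B of the endoplasmic reticulum, had 190.3 ± 7.1 and 173 ± 28.7 CPM. Of 10 analysed genes listed as receptor tyrosine phosphatases, 8 were higher and 2 lower, with a median of 0.30. The 2 lower genes include Ptprcap (-0.07), whose product associates with CD45 and is not itself a phosphatase. The median fell to 0.19 for the receptor and to 0.02 for the non-receptor genes without Chat- replicate 4. Ptprs had 23.3 ± 4.31 and 18.2 ± 1.45 CPM, and Ptprk had 2.48 ± 1.06 and 1.80 ± 2.95 CPM, with 7.06 CPM in Chat- replicate 4 against 0.243 to 0.811 CPM in the other Chat- libraries.

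Of 25 analysed phosphoinositide phosphatase genes, 10 were higher and 15 lower, and the median log2 fold change was -0.04. In 2 of the 25 every Chat+ library was above every Chat- library, as in 1.12% of all genes. Inpp4a, which acts on the lipid that SHIP1 produces, had 37.0, 43.2, 40.4, 36.6 and 32.6 CPM in Chat+ replicates 1 to 5 and 25.9, 28.9, 26.1, 28.7 and 20.8 CPM in Chat- replicates 1 to 5. Its log2 fold change was 0.54 ± 0.13 (SE; limma adjusted p = 0.34). Inpp5f, a phosphatase of the Sac family, had 99.9, 97.3, 95.9, 103 and 105 CPM against 82.1, 75.7, 80.4, 71.4 and 90.1 CPM, with a log2 fold change of 0.33 ± 0.09 (SE; limma adjusted p = 0.47). With quality weights for the libraries both passed (limma adjusted p = 0.038 for Inpp4a, 0.042 for Inpp5f). That fit called 105 of 14450 genes (0.727%). Without Chat- replicate 4 the limma adjusted p was 0.15 for Inpp4a and 0.29 for Inpp5f. In 15 of 17 alternative fits this list had 0 genes past the threshold, as in the main fit.

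The 9 Src family kinase genes with the Csk homologue Matk had 6 higher and 3 lower, a list median of 0.05 (log2 fold change) and 0 with an unadjusted p under 0.05. Matk averaged 13.7 ± 3.93 CPM in Chat+ against 9.44 ± 2.98 in Chat- (SD, n = 5), and Lck, a kinase better known in T cells, 20.6 ± 4.69 and 25.5 ± 5.53 CPM. Of 20 adaptor and ubiquitin ligase genes listed for a part in restraining receptor signals, 13 were higher and 7 lower, with a median of 0.04. The list also holds the adaptors Grb2, Nck1 and Nck2, and whether each gene restrains these signals was not examined. Ubash3b, a histidine phosphatase family member that opposes receptor kinases, had 13.3 ± 4.98 and 9.55 ± 2.79 CPM, and Sh2b3, the adaptor Lnk, 244 ± 23.6 and 267 ± 20.4 CPM.

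Receptors with inhibitory tyrosine motifs can recruit Ptpn6 or Inpp5d. Of 17 analysed genes listed as such receptors, 10 were higher and 7 lower, and the median log2 fold change was 0.02. The list also holds Fcrla (-0.02), an intracellular protein, and Fcrl1 (0.01), better known for activating motifs. Sirpa, a receptor for CD47, had 39.0, 44.1, 31.5, 31.2 and 46.5 CPM in Chat+ replicates 1 to 5 and 19.0, 17.7, 11, 28.2 and 15.9 CPM in Chat- replicates 1 to 5. The groups did not overlap, and the log2 fold change was 1.11 ± 0.22 (SE; limma adjusted p = 0.22, and 0.040 without Chat- replicate 4, where 0.0415% of all genes passed). Fcrl5, a receptor of innate-like B cells in mice, had 45.6, 29.2, 24.6, 30.2 and 109 CPM against 13.1, 9.69, 10, 13.2 and 33.5 CPM. Replicate 5 was the highest of both groups, which overlapped. The log2 fold change was 1.51 ± 0.42 (SE), with a limma adjusted p of 0.49. That p was 0.34 without Chat- replicate 4 and 0.021 with a replicate block, which also called 0.0415% of all genes. Whether libraries pair by number was not settled. In 13 of 17 alternative fits this list had 0 genes past the threshold, as in the main fit.

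Of 8 analysed dual-specificity phosphatases of MAP kinases, 2 were higher and 6 lower, with a list median of -0.17 (log2 fold change), and 1 of 8 had an unadjusted p under 0.05. That was Dusp6, a phosphatase of ERK, which averaged 30 ± 6.48 CPM in Chat+ against 44.7 ± 5.97 in Chat- (SD, n = 5). Its log2 fold change was -0.59 ± 0.16 (SE; limma adjusted p = 0.48). Dusp2, a nuclear phosphatase of ERK, had 119.7 ± 31 and 152 ± 27.5 CPM (limma adjusted p = 0.999).

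**Figure D5:**
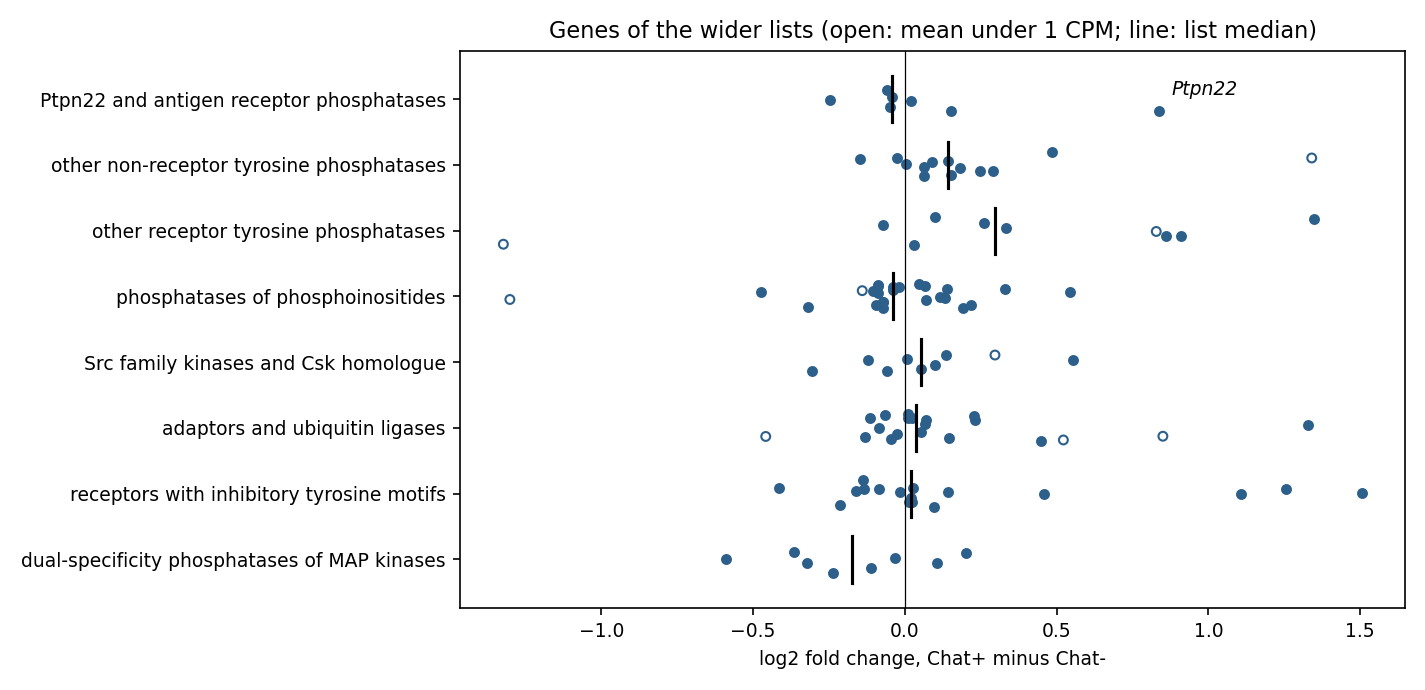
Log2 fold change between Chat+ and Chat- (x axis) of each gene of the 8 gene lists (rows), with open points for genes with a mean under 1 CPM and a vertical line at each list median. Ptpn22 (0.84), which was selected on this difference, lies apart from the other 6 genes of its row (-0.25 to 0.15). List medians run from -0.17 to 0.30, and other rows hold larger single values, up to 1.51 for Fcrl5.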

How the data were processed

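The labels' protocols describe a directional library kit. The submitters' processing notes name cutadapt 2.6 for trimming, Salmon 0.14.2 for quantification and GRCm38.p6 as the build; the annotation and strand setting are not stated there. The deposited values are log2 values: once a common offset of 0.1148 CPM is taken off, each library sums to 1000000 CPM. Only 35.4% to 48.7% of each library's values below 3 CPM came out as whole reads (tolerance 0.001), so no count model was used.

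Every gene was tested with limma 3.58.1 in R 4.3.3 (mean-variance trend, group as the only term, two-sided, Benjamini-Hochberg over 14450 genes, threshold 0.05). Fold changes compare log2(CPM + offset) values and so understate the change of low genes. The fit was tested on simulated data. It called 12 of 50 genes changed 1.5-fold, 27 of 50 at 2-fold, 39 of 50 at 4-fold and 42 of 50 at 8-fold. It also called 5 of 14250 unchanged genes. A gene that did not pass may thus still differ. In the simulation genes varied independently and no library stood apart as Chat- replicate 4 did. Its rates may therefore not hold for the real libraries. Scaling by trimmed means (TMM), other pseudocounts, a filter, quality weights and a replicate block were alternatives. The genes described and all lists were chosen with earlier results of these data known. Of each list, the 2 genes with the smallest p and a mean of at least 1 CPM were named, and of each marker list the highest. Mki67, Tpx2 and Sparc were named outside this rule, with their values known. The 300 kb window and the motif were chosen after values were seen. Symbols were matched for 14374 identifiers, and positions, lengths and sequences were taken from GENCODE M21 (GRCm38). Intervals of depth cover counting error only.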

Additional observations from a re-analysis of the deposited data

Results flagged for a closer look

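In 5 libraries of a group, 9 values lay farther from the rest than Dixon's 95% limit allows, among 54 groups examined, where chance flags about 1 in 20. Of these, 6 were in Chat- replicate 4. It had the lowest Csk of its group (437 CPM against 715 to 755 CPM), the lowest Ptpn6 (413 against 851 to 961 CPM), the lowest Inpp5d (226 against 305 to 337 CPM) and the lowest Pecam1 (177 against 253 to 284 CPM). It had the highest Ptprk (7.06 against 0.243 to 0.811 CPM) and the highest Lyz2, a myeloid lysozyme gene (87.4 against 16 to 24.2 CPM). The other 3 were in libraries numbered 5. Fcrl5 was highest in Chat+ replicate 5 (109 against 24.6 to 45.6 CPM) and in Chat- replicate 5 (33.5 against 9.69 to 13.2 CPM). Ptpn14 was highest in Chat- replicate 5 (35.8 against 19.8 to 21.9 CPM).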

How the results depend on the processing

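The Ptpn22 log2 fold change kept its direction under all 17 alternatives, from 0.76 to 0.91, and its groups did not overlap with TMM scaling. Its groups were already separate with all libraries, so leaving out 1 library could neither make them overlap nor turn the direction. The count of genes past the threshold rose from 1 to 3 without the mean-variance trend, 6 with the replicate number as a block and 105 with library quality weights. It was 82 with the block and without Chat- replicate 4, an alternative chosen after seeing the data. Leaving out 1 library gave 1 to 6 genes, with 6 without Chat+ replicate 5 or Chat- replicate 4 and 2 without Chat- replicate 1 or 3. Among the 7 genes the count was 0, and 1, Ptpn22, with quality weights, with the block without Chat- replicate 4 and without Chat- replicate 4; nothing is read from this, since Ptpn22 was selected on its difference. Leaving out 1 library thus gave 0 to 1 of the 7, and 1 to 3 with groups that did not overlap. Inpp5d turned to -0.02 with TMM scaling, -0.04 with quality weights and -0.08 with the block without Chat- replicate 4, and ran from -0.07 to 0.07 when 1 library was left out. Csk ran from -0.20 to 0.00 and Ptpn6 from -0.29 to 0.02. The cause was not tested. Pairing of libraries by number was not settled (correlations of deviations from -0.21 to 0.26). Chat+ replicates 1, 2 and 5 were closest to the Chat- library of their own number. Chat+ replicate 3 was closest to Chat- replicate 4, and Chat+ replicate 4 to Chat- replicate 2. The main fit takes no account of a pairing, and the replicate block is given as a check. With the block Ptpn22 was at 0.84 ± 0.11 (SE). The SE of Pag1 fell from 0.14 to 0.09, while that of Csk stayed at 0.15. Depths are estimates, and genes of the lists below 1 CPM rest on few reads.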
